A study of Mus musculus with 6 samples.

Results

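Imprinted genes are expressed mainly or only from the copy inherited from 1 parent. The group described here holds 50 mouse imprinted genes and genes that lie within imprinted clusters, including the Snrpn-Ube3a cluster of chromosome 7. A row of the deposited table was assigned to a member where its position overlapped the annotated span of the gene by at least 0.5 of their union, whatever the row's status. By this rule 39 of the 50 genes had 90 of the 32357 rows of the table, and the other 11 had none.

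The RNA came from primary cortical cultures of E14.5 Balb/c mice, in which NEUROD2, a basic helix-loop-helix transcription factor of excitatory neurons, had been knocked down. Cells had been nucleofected before plating with shRNA plasmids in a pSuperneoGFP backbone, so every group, the controls included, carried such a plasmid. The control group was 2 libraries with a non-silencing plasmid, and the knockdown group was 4 libraries, 2 with shNeurod2-1 and 2 with shNeurod2-2. The labels put the cultures at 4 days in vitro and the study's methods at 5, and neither states whether libraries of a group came from separate cultures. The authors pooled each group, both shRNAs together, so each row carries 1 value per group and no spread between libraries, and no test of a difference was possible. The depth behind each value is unknown.

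Imprinting is set by DNA methylation laid down at imprint control regions in the egg or the sperm and kept through the early divisions of the embryo. Imprinted genes lie in clusters, in which long noncoding RNAs, snoRNAs and microRNAs are often made from one parental copy while protein-coding genes are made from the other. In the brain the clusters are known for growth and behaviour phenotypes: loss of the paternal copy of the human SNRPN region causes Prader-Willi syndrome, and loss of maternal UBE3A in neurons causes Angelman syndrome.

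Of the 30 imprinted genes with a usable level, 6 had at least 1 row at their position that differed by 1.5-fold or more between the groups. They were Meg3, Rian, Mirg, Igf2, A330076H08Rik and Rtl1. At Rtl1 this was only on the opposite strand, so it was not a difference in Rtl1 itself. Genes with more rows had more chances of a call, and Rian and Mirg had 8 rows each. The share of genes with such a row over the whole table was not computed. Levels are in FPKM, the number of sequenced fragments scaled for transcript length and library size. A row was counted where the mean of both groups was at least 1 FPKM, and was called where the ratio of knockdown to non-silencing, with 1 FPKM added to each, was at least 1.5-fold. Of the members, 54 rows of 30 genes were counted, and 9 of these rows were higher and 1 was lower in the knockdown. The calls at Igf2 and on the strand opposite to Rtl1 were rows listed at 0 in the non-silencing group. They reached the minimum only through their knockdown level. Igf2 had no other counted row, and Rtl1 on its own strand had 1.16 and 1.02 FPKM. Among all 12782 counted rows of the table, 1.94% were higher and 2.03% were lower. Of the member rows 74.1% were within 1.2-fold, against 89.2% of all counted rows. These shares are not of like rows, since 32 of the 54 member rows, but 2175 of the 12782, lay at positions with a small RNA gene. The median log2 ratio of the 54 rows was 0.00, against a median of -0.03 over all counted rows.

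All 10 called rows lay at positions that contain an annotated small RNA gene, and 5 of them were listed at 0 in 1 of the groups. The authors' program had marked 3 of the 10 as not tested: that at Igf2, 1 of the calls at Mirg and 1 of those on the strand opposite to Rtl1. With only rows of status OK, 6 of 51 member rows were higher and 1 was lower, against 1.16% and 1.94% of all such rows. The 22 counted member rows with no small RNA gene inside held no call, and their log2 ratios ran from -0.22 to 0.24. All were within 1.2-fold, as were 91.6% of all counted rows without such a gene. With such a gene inside, 56.2% of member rows were within 1.2-fold, against 77.7% of all such counted rows. The share of called rows was also larger at positions with a small RNA gene over the whole table: 7.13% of such rows were higher and 7.26% lower, against 0.877% and 0.962% of rows without one. Of the 32 member rows at such positions, 28.1% were higher and 3.12% lower; several of these rows share a position, so they are not independent of each other. FPKM divides by length, so in a very short row few reads make a high level; its part in these values was not tested.

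**Figure D1:**
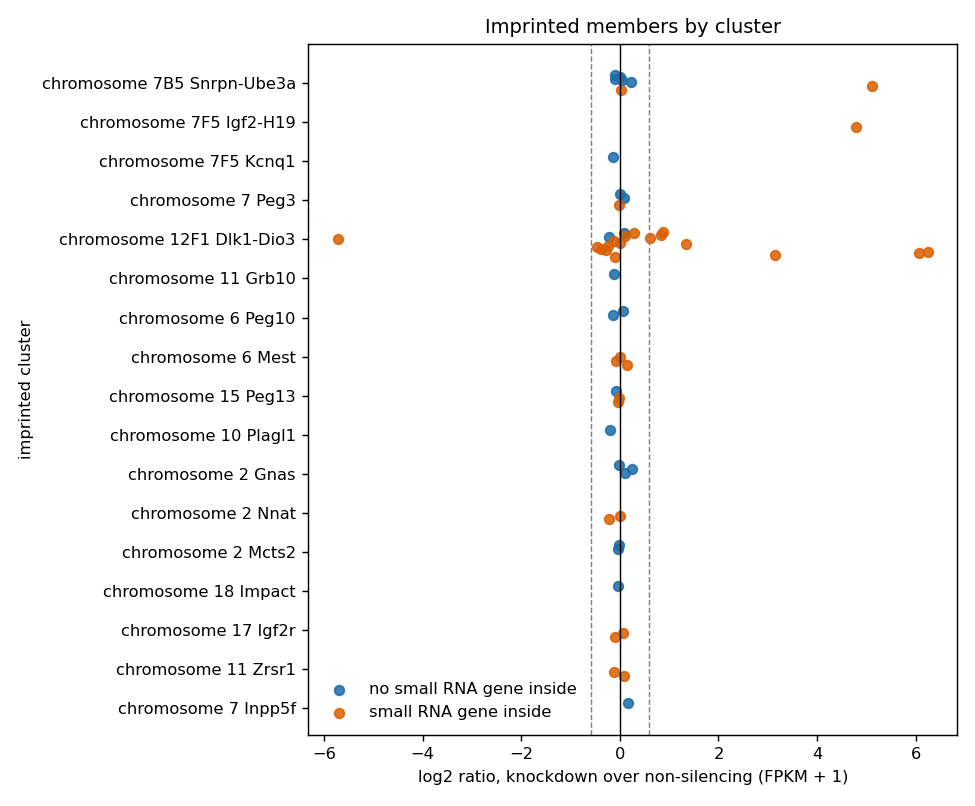
Log2 ratio of knockdown over non-silencing FPKM, with 1 FPKM added to each, for the 54 counted member rows (points) by imprinted cluster; dashed lines mark 1.5-fold. Blue points, with no small RNA gene inside, lie between -0.22 and 0.24, and the points beyond the lines are all orange, with a small RNA gene inside.

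Some of the microRNAs that lie inside the called positions are shown here, since the table does not tell which called rows hold small RNAs and which hold host transcripts. They are those of A330076H08Rik, Igf2 and Meg3, 2 of the microRNA genes at Rtl1, and the products at Mirg that share a seed. The mature sequences are those of RefSeq for GRCm38.p6, 5′ to 3′, and the capitals mark the seed, bases 2 to 8, which pairs with target mRNAs. Inside A330076H08Rik lie 2 microRNA genes of the Mir344 family, whose 5p products share a seed, as the pair of lines marked 5p shows.
miR-344-5p: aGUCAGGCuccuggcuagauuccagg
miR-344-3p: uGAUCUAGccaaagccugacugu
miR-344g-5p: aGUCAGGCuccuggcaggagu
miR-344g-3p: cAGGCUCUagccaggggcuuga
Mir483 lies inside Igf2, and its products have different seeds.
miR-483-5p: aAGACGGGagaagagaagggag
miR-483-3p: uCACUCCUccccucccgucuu
Mir770 and Mir1906-1 lie inside Meg3.
miR-770-5p: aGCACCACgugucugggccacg
miR-770-3p: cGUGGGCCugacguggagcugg
miR-1906: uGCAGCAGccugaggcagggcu
Of the 7 microRNA genes at the position of Rtl1, 1 is on the strand of Rtl1 and the others run against it, among them Mir127 and Mir136.
miR-127-5p: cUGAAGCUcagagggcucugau
miR-127-3p: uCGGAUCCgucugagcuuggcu
miR-136-5p: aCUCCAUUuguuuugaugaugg
miR-136-3p: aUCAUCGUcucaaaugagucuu
Inside Mirg lie 15 microRNA genes, 14 of them on its strand, and among the 26 mature products that RefSeq gives for them, 2 share a seed.
miR-453: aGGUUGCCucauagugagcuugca
miR-496a-5p: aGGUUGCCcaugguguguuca

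Because rows of the table carry no strand, it was read from their numbering, which runs through each chromosome once per strand. On 16208 rows that match a single gene and are alone at their position, the strand read in this way was that of the annotation in 16190. Rows on the strand opposite to a member are given as such and are not levels of that member.

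In the Snrpn-Ube3a cluster (7B5), the protein-coding genes stood at close levels in both groups. Ube3a, the ubiquitin ligase expressed from the maternal copy in neurons (chr7:59228750-59306727 in mm10, plus strand), had 58.0 FPKM in the non-silencing and 59.8 FPKM in the knockdown group. On the opposite strand of the same position, 1 row had 3.43 and 4.17 FPKM, a log2 ratio of 0.22, and another had 0.696 and 1.12 FPKM. Snhg14, the long paternal transcript that hosts snoRNAs and runs against Ube3a, had no row of its own, but 3 counted rows lay inside its span on its strand. The row next to Ube3a had 22.8 and 25.0 FPKM, the middle row 9.97 and 11.7 FPKM, and the row next to Snrpn 54.8 and 61.6 FPKM. All 3 had higher values in the knockdown, with log2 ratios of 0.13, 0.21 and 0.17, none of which reached the call.

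Snrpn, which encodes a spliceosomal protein, had no row of its own because the deposited position, chr7:59982501-60450177, runs far beyond the gene. That row, on the strand of Snrpn, had 59.7 and 62.3 FPKM. Ndn, which encodes the MAGE family protein necdin and is paternally expressed, was the highest member of the cluster in the control group, at 135 FPKM against 127 FPKM in the knockdown. Mkrn3, a makorin ring finger gene, had 10.4 and 10.5 FPKM, and Peg12 had 7.01 and 6.49 FPKM. Magel2, a second MAGE family gene, was under the minimum, at 0.356 and 0.393 FPKM. The row of Snrpn and those of Ndn, Mkrn3, Peg12 and Ube3a on its own strand all had log2 ratios between -0.10 and 0.06.

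A330076H08Rik, a noncoding RNA gene of the cluster (chr7:61930137-61982359, minus strand), had 2 rows at 1 position and on 1 strand. The row with 1 transcript identifier had 66.8 FPKM in the non-silencing and 68.1 FPKM in the knockdown group. The row with 4 identifiers had 4.95 and 204 FPKM, a log2 ratio of 5.11. Which of them holds the host RNA and which the Mir344 genes is not told by the table. From the start of Ube3a to the end of Peg12, over 3236 kb, the table had 43 rows, of which 16 were counted, 1 was called higher and 1 lower. All 14 rows of at most 200 bases in this stretch, where the annotation places 210 snoRNA genes, were listed at 0 in both groups.

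**Figure D2:**
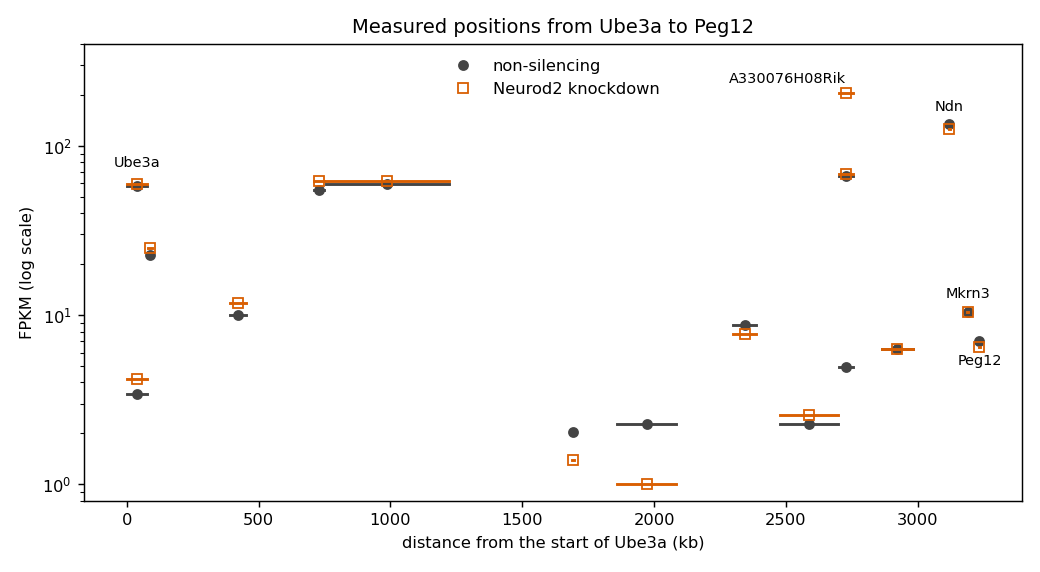
FPKM (log scale) of the 16 counted rows from Ube3a to Peg12 against distance from the start of Ube3a in kb; bars span the row's position, filled circles are the non-silencing group and open squares the knockdown group. The symbols nearly coincide at most positions. One of the rows at A330076H08Rik parts from 4.95 to 204 FPKM, and the row of A230006K03Rik, which is no member and has no small RNA gene inside, falls from 2.28 to 1.01 FPKM.

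Among the unimprinted genes around the cluster, none of the 9 counted rows was called. Their median log2 ratio was 0.02 with a range from -0.13 to 0.38, and 8 of the 9 were within 1.2-fold. Herc2, another ubiquitin ligase gene, had 40.6 and 41.8 FPKM.

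The Dlk1-Dio3 cluster (12F1) makes Meg3, Rian and Mirg from its maternal copy and Dlk1, Rtl1 and Dio3 from its paternal copy. It held 8 of the 10 calls, 7 higher and 1 lower among 19 counted rows (36.8% and 5.26%). Over all counted rows, 1.94% were higher and 2.03% lower. At positions with a small RNA gene, where all 8 calls lay, these shares were 7.13% and 7.26%. Of the 8 calls, 4 were listed at 0 in 1 of the groups, and 2 were on the strand opposite to Rtl1. The rows of Rian share 1 position, as do those of Mirg and those at Rtl1, so they are not independent of each other. Meg3, a long noncoding RNA (chr12:109540996-109571729, plus strand), had 78.3 FPKM in the non-silencing and 145 FPKM in the knockdown group. This 1.85-fold ratio, 0.88 on the log2 scale, came from the only row at its position, and Meg3 was the only called member that did not share a position with other rows. The 300 bases around its start, 250 before and 50 after (chr12:109540746-109541045, plus strand, RefSeq for GRCm38.p6), are shown because NEUROD2 belongs to a family that binds E-boxes.
Meg3 promoter: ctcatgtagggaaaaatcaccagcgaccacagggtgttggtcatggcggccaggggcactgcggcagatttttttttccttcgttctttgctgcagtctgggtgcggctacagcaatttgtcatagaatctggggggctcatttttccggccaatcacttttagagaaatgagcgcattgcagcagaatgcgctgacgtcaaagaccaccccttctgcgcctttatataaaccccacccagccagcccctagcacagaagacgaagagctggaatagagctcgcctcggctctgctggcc
The E-box CANNTG, which reads the same way on both strands, does not occur in this window, while 72.3% of 32851 promoter windows of the same length hold it at least once. The study reported that most NEUROD2 binding sites lay away from promoters, so this window tells nothing of binding elsewhere at Meg3. Binding of NEUROD2 at Meg3 was not tested here.

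Rian, the host of snoRNAs and microRNAs downstream of Meg3, had 8 rows at 1 position, all on its strand, with 4 microRNA and 13 snoRNA genes inside. The row with the most transcript identifiers, 6, had 195 FPKM in the non-silencing and 210 FPKM in the knockdown group, a log2 ratio of 0.11. The other rows had 1 identifier each. Of these, 1 had 244 and 436 FPKM (log2 ratio 0.84), and 1 had 129 and 198 FPKM (0.61), just inside the call. One more row had 51.7 FPKM in the non-silencing group and was listed at 0 in the knockdown, the only call downwards among the members. The remaining rows with readable levels had 360 and 436, 20.9 and 19.3, and 15.1 and 15.2 FPKM, and 1 row could not be read. Rows of Rian thus lay on both sides of 0.

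Mirg, the microRNA host next in line, also had 8 rows at 1 position and on its strand. The row with 11 identifiers had 189 and 483 FPKM, a log2 ratio of 1.35, the largest among member rows above 0 in both groups apart from A330076H08Rik. A row listed at 0 in the non-silencing group, marked as not tested, had 75.2 FPKM in the knockdown. The 4 other counted rows were lower in the knockdown without reaching the call, at 189 and 159, 117 and 84.4, 67.1 and 51.1, and 50.1 and 40.9 FPKM. The row with log2 ratio -0.47, from 117 to 84.4 FPKM, was the nearest to the call among the members outside it. The last 2 rows were listed at 0 in both groups.

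Rtl1, a retrotransposon-derived gene of the paternal copy, was level on its own strand, at 1.16 and 1.02 FPKM. Its called rows were both on the opposite strand, where the maternal transcript with Mir127 and Mir136 runs. They were listed at 0 in the non-silencing group and had 65.8 and 7.85 FPKM in the knockdown, so no fold is given; the lower of them was marked as not tested. Of the other 3 rows on that strand, 1 had 0.645 and 0.651 FPKM, 1 was listed at 0 in both groups and 1 could not be read. Among the protein-coding genes, Dio3, the deiodinase that inactivates thyroid hormone, had 1.21 and 1.34 FPKM. Begain, a postsynaptic protein gene at the edge of the cluster, had 8.01 and 6.76 FPKM. Dlk1, a Notch ligand relative, was listed at 0 in the non-silencing group and at 0.0233 FPKM in the knockdown.

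**Figure D3:**
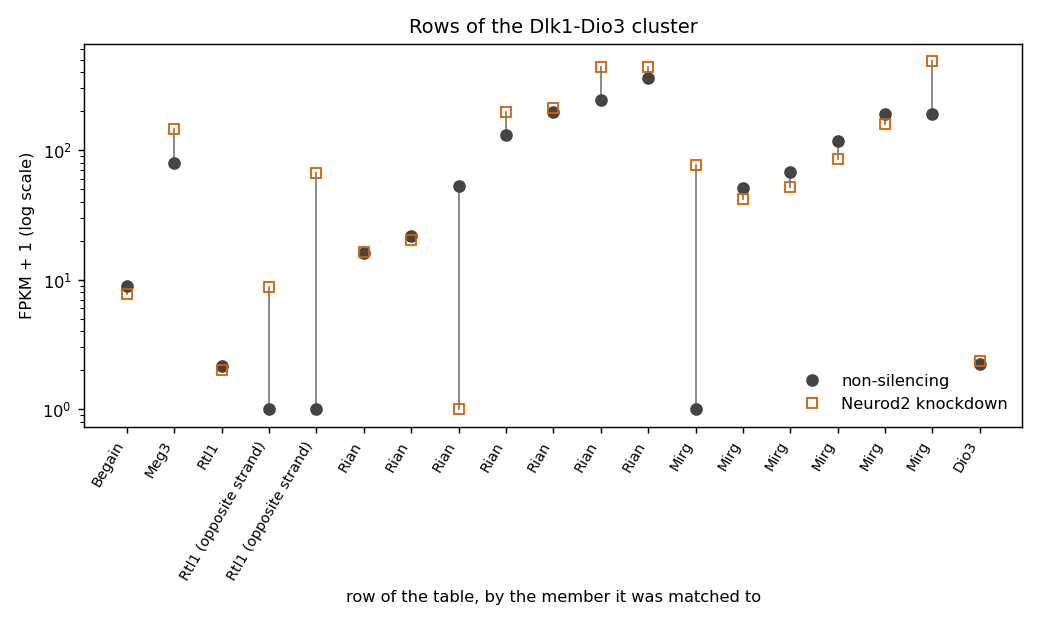
FPKM + 1 (log scale) in the non-silencing (filled circles) and knockdown (open squares) groups for the 19 counted rows of the Dlk1-Dio3 cluster, ordered within each member by mean level. Meg3 parts from 78.3 to 145 FPKM, the rows of Rian and Mirg move both ways, and Begain, Dio3 and Rtl1 on its own strand stay close.

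In the Igf2-H19 and Kcnq1 clusters (7F5) most members were near 0. Igf2, the paternally expressed growth factor, had 0.0370 and 0.0511 FPKM in the row with 3 identifiers. A second row on its strand, with 1 identifier and Mir483 at its position, was listed at 0 in the non-silencing group and had 26.6 FPKM in the knockdown. That row was marked by the authors' program as not tested. H19, the maternal noncoding RNA, had 0.857 and 0.617 FPKM. Phlda2, a growth-restraining gene of the placenta, was listed at 0 in the non-silencing group and had 0.0274 FPKM in the knockdown. Ascl2, a placental transcription factor, was likewise listed at 0 and had 0.0820 FPKM in the knockdown. Cdkn1c, the cyclin-dependent kinase inhibitor p57, was the only counted member of the Kcnq1 cluster, at 10.8 and 9.77 FPKM. Kcnq1ot1, the noncoding RNA that silences this cluster on the paternal copy, had no row of its own. A row on its strand at the position of Kcnq1 had 1.93 and 2.16 FPKM, and since Kcnq1 runs on the other strand this row covers the noncoding RNA among others.

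The Peg3 cluster of chromosome 7 had 3 members, all level. Peg3, a paternally expressed zinc finger gene, had 13.07 and 13.04 FPKM. Usp29, a paternally expressed ubiquitin protease gene that starts beside it on the other strand, had 11.2 and 11.1 FPKM. Zim1, the maternally expressed zinc finger gene, had 1.33 and 1.47 FPKM. Their log2 ratios lay between -0.01 and 0.09.

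On chromosome 2, the row on the strand of Nnat, at chr2:157556362-157566361, had the highest mean level of the 54 counted rows, with 484 and 487 FPKM. Nnat, the paternally expressed membrane protein neuronatin, lies inside an intron of Blcap, which runs against it. Blcap on its own strand had 41.1 and 35.1 FPKM, a log2 ratio of -0.22. Gnas, which encodes the stimulatory G protein alpha subunit, had 342 and 338 FPKM in its main row of 11 identifiers. A second row on its strand had 2.97 and 3.69 FPKM. The row on the strand of Nespas, the antisense RNA of that locus, had 2.23 and 2.46 FPKM. H13, a signal peptide peptidase gene, had rows of 36.6 and 36.0 and of 13.7 and 13.3 FPKM, the retrogene Mcts2 lying within both on the same strand.

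On chromosome 6 the paternally expressed retrotransposon-derived Peg10 had 7.63 and 8.09 FPKM. Its neighbour Sgce, which encodes epsilon-sarcoglycan, had 12.5 and 11.3 FPKM. At the position shared by Mest and Copg2, 2 rows on the strand of Mest, a paternally expressed hydrolase gene, had 29.8 and 30.1 and 13.4 and 14.9 FPKM. A further row on that strand could not be read. Copg2, a coatomer subunit gene, had 27.5 and 26.0 FPKM on the other strand. Nap1l5, an imprinted gene inside an intron of Herc3, had no row of its own. The row on its strand had 8.22 and 8.30 FPKM. Asb4 was under the minimum, at 0.358 and 0.301 FPKM, and so was Calcr, the calcitonin receptor gene, at 0.0721 and 0.0365 FPKM in its highest row.

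The members of the other clusters were level as well. Inpp5f, a phosphoinositide phosphatase gene on chromosome 7, had 88.8 and 100 FPKM. The rows at Trappc9 on chromosome 15, a trafficking complex gene with Peg13 in an intron on the same strand, had 53.3 and 52.7 and 14.8 and 14.4 FPKM. Its neighbour Kcnk9, a potassium channel gene expressed from the maternal copy, had 16.3 and 15.4 FPKM. Grb10, an adaptor of insulin signalling that is paternally expressed in neurons, had 30.7 and 28.2 FPKM. Its neighbour Ddc, which makes dopamine and serotonin, had 0.0893 and 0.0685 FPKM. Commd1 had 32.8 and 30.1 FPKM, and a row on the opposite strand, on which its intronic retrogene Zrsr1 runs, had 4.50 and 4.87 FPKM. Plagl1, a zinc finger regulator of growth, had 11.5 and 9.77 FPKM, a log2 ratio of -0.21. Impact, a regulator of translation, had 16.8 and 16.3 FPKM. At Igf2r, the maternally expressed clearance receptor for IGF2, a row on its strand with 1 transcript identifier had 17.6 and 18.3 FPKM. Another on that strand, with 6 identifiers, had 0.0791 and 0.0720 FPKM, and the rest there were listed at 0. Which of them holds Igf2r is not known. Airn, the paternal RNA that runs against Igf2r, had 1.09 and 0.957 FPKM. Rasgrf1, an exchange factor for Ras, had 0.264 and 0.272 FPKM.

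**Figure D4:**
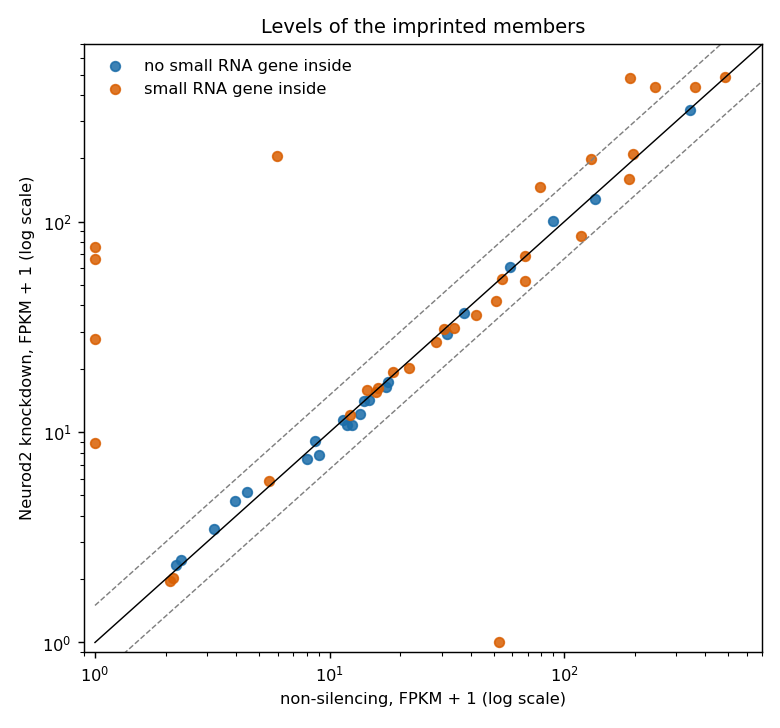
Knockdown against non-silencing level (FPKM + 1, both axes on a log scale) for the 54 counted member rows; the solid line marks equal levels and the dashed lines 1.5-fold. Rows with no small RNA gene inside (blue) follow the solid line from 1.21 FPKM at Dio3 to 342 FPKM at Gnas, and the points outside the dashed lines, on both sides, are orange (small RNA gene inside).

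The members were also set out by the parental copy that is known to be expressed. Only rows on a member's own strand were used. The 11 members without a row, among them Snrpn, Snhg14, Nnat and Mest, are not in this split. The rows of Trappc9 and H13, set with the maternal members, also cover Peg13 and Mcts2 on the same strand, so they are not of those members alone. Of the 16 counted rows of paternally expressed members, 2 were higher and none was lower, with a median log2 ratio of -0.03. Of the 24 rows of maternally expressed members, 5 were higher and 1 lower, with a median of -0.03. Among all counted rows of the table, 1.94% were higher and 2.03% lower. The maternal calls were all rows of Meg3, Rian and Mirg, in the Dlk1-Dio3 cluster. The rows of Rian share 1 position and so do those of Mirg, so they are not independent of each other. Members not assigned to 1 parental copy had 5 counted rows, with no call. With rows holding a small RNA gene left aside, the medians were -0.06 over 10 paternal and -0.03 over 6 maternal rows, with no call in either.

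Further imprinted genes outside the group gave a like picture. Of their 19 counted rows 2 were higher and none lower, with a median log2 ratio of 0.02. Both calls were rows listed at 0 in the non-silencing group, with 34.6 and 5.53 FPKM in the knockdown, at the position of Sfmbt2, where 119 small RNA genes lie. Nap1l4 had 95.6 and 92.3 FPKM, and Bcl2l1 had 48.0 and 44.9 FPKM. Among the genes of imprint control and DNA methylation, 1 of 21 counted rows was higher and none lower, with a median of 0.00. The call was a row at Dnmt1, the maintenance methyltransferase, listed at 0 and then at 31.0 FPKM, with a small RNA gene inside. The other row of Dnmt1 had 45.0 and 41.4 FPKM. Zfp57, the zinc finger protein that protects imprints, had 53.2 and 52.5 FPKM, and Atrx, a chromatin remodeller, had 49.0 and 57.3 FPKM. Ehmt2, a histone H3 lysine 9 methyltransferase gene, had 248 and 195 FPKM, a log2 ratio of -0.34.

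Neurod2 itself had 105 FPKM in the non-silencing and 60.3 FPKM in the knockdown group, 0.575 times the control level. Of the cell type markers, none of the 7 counted neuronal rows was called, Tubb3 having 839 and 879 FPKM, and their summed level was 1559 and 1669 FPKM. None of the 4 progenitor rows, 5 oligodendrocyte lineage rows and 3 counted fibroblast and mural rows was called, while Gfap, an astrocyte marker, had 57.4 and 35.1 FPKM, and it was the only call among 3 astrocyte rows. The summed level of all 8 fibroblast and mural markers was 8.25 and 11.2 FPKM, and 3 of those under the minimum had higher values in the knockdown. Col1a1 had 0.125 and 0.975 FPKM, Col3a1 had 0.171 and 0.765 FPKM, and Acta2 had 0.409 and 1.28 FPKM; these were named after their values were seen. Markers of microglia, endothelium and choroid plexus stayed at or under 0.183 FPKM. In such bulk samples, fewer cells of a type and less RNA per cell cannot be told apart, and the part of Gfap-expressing and of Col1a1-expressing cells in the levels of the members was not tested.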

How the data were processed

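RNA of 6 libraries had been read as 50 bp single-end reads. The submitters' notes name TopHat, Cufflinks, Cuffdiff and mm10; which versions and settings were used is not given in the sources used here. Per the file header and the methods, the authors' table has 1 FPKM value per group and row, each group's libraries pooled, as deposited. Its log2 fold change, test score, p-value, q-value and significance columns hold the authors' own comparison and are not reported; their log2 ratio served only to repair the levels. A spreadsheet had turned many levels into times of day. A level was restored where a single pair of candidate numbers gave the deposited log2 ratio within 2e-05: 27329 rows were intact, 4905 were restored and 123 stayed unread. Of the 90 member rows, 18 were restored and 3 stayed unread. On 3724 simulated rows, built from levels already restored with noise added, 99.6% were restored rightly and 0 wrongly. The simulation held no row at 0 in a group and did not cover every altered format, so it does not measure the share of real rows restored.

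Rows were matched to GENCODE M21 genes on GRCm38, the assembly of mm10, with an overlap of at least 0.5 of the union. Small RNA genes are those of this annotation that lie wholly inside a row's position. Log2 ratios are of FPKM + 1, which understates the change of low rows. Rows of 1 mean FPKM or more were counted and called at 1.5-fold. RefSeq microRNA and promoter sequences were of GRCm38.p6. The members and lists were chosen with earlier results of these data known. All members were accounted for, those with a counted row by their levels; the other lists were given by counts and up to 4 examples, the called rows first and then the highest, with 1 example not reported here. Calculations used Python 3.11.15, numpy 2.4.6 and pandas 2.3.3.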

Additional observations from a re-analysis of the deposited data

How the results depend on the processing

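Counts of called member rows moved by over 1.5 times from 9 higher and 1 lower under 5 of the 14 other settings. They were 5 and 0 of 49 rows with no pseudocount, against 1.36% and 2.09% of all rows. With rows at 0 in a group left out they were 5 and 0 of 49, against 0.913% and 1.63%. Without rows at a shared position they were 1 and 0 of 14, against 1.16% and 1.4%. Without rows with a small RNA gene inside they were 0 and 0 of 22, against 0.877% and 0.962%. With 1 row per member gene they were 5 and 0 of 30, the counts given by the row of highest mean at each gene. That choice favours rows high in the knockdown, such as those at A330076H08Rik, at Igf2 and on the strand opposite to Rtl1. The shares of all counted rows, 1.94% and 2.03%, are not of 1 row per gene, so this setting does not compare like with like. On the members' own strand they moved less, to 7 and 1 of 45, against 1.94% and 2.03% of all counted rows on either strand. The median log2 ratio of 0.00 became -0.01 with no pseudocount, with a minimum mean of 5 FPKM, with only rows of status OK and without rows at 0 in a group. It was 0.02 without time-formatted levels, 0.01 with an overlap of at least 0.8, -0.06 without shared positions, -0.02 without small RNA positions and on the members' own strand, and 0.03 after centring on all rows. The settings with 1 row per member, without rows at 0 and on the members' own strand were chosen after seeing the data. No paired analysis was possible because each group has 1 pooled value, and no library could be left out. Depth is unknown, so no level could be given a counting error.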

Other observations

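Between Snrpn and Ndn, the only called row lower in the knockdown was that of A230006K03Rik, a noncoding gene of the 7B5 region that is no member, at 2.28 FPKM in the non-silencing and 1.01 FPKM in the knockdown group, a log2 ratio of -0.71. It has no small RNA gene inside. It was named after its values were seen. Mbd3, a member of the methyl-CpG binding family, had the lowest log2 ratio of the genes of imprint control, -0.45, from 39.8 to 28.8 FPKM, without reaching the call; it too was named after its values were seen.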
